A study of Mus musculus with 12 samples.

Results

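Established targets of the microRNA miR-27, 10 genes reported as such in other cells, were followed in mouse oligodendrocyte precursor cells given extra miR-27a. The 10 genes were Abca1, Cyp1b1, Ccng1, Adora2b, Plk2, Foxo1, Spry2, Fbxw7, Zbtb10 and Runx1, taken by symbol from a table of 20540 genes, and all 10 had a row in it. The cells were isolated from brain tissue of C57BL/6 mice aged 6 to 7 days after birth and were kept in a SATO proliferation medium that the labels describe as holding PDGFRA. They received a biotin-tagged miR-27a mimic, a short synthetic RNA that acts as the microRNA, or a biotin-tagged control mimic. RNA was sequenced from whole cells and from material captured through the biotin tag (the pulldown), which gave 4 groups of 3 libraries: whole-cell RNA with the control mimic, whole-cell RNA with miR-27a, pulldown RNA with the control mimic, and pulldown RNA with miR-27a. Every group received a mimic. What the control mimic's bases are is not stated in the labels used here. Nor do they say whether the 3 libraries of a group are separate cultures; p-values thus measure only the spread among these libraries, which may be technical.

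MicroRNAs guide Argonaute proteins to messenger RNAs, mostly by pairing of the seed, the bases near the microRNA's 5′ end, with a complementary site in the 3′ untranslated region (3′ UTR). A paired transcript is usually translated less and degraded faster, so a direct target is often lower in whole-cell RNA. A tagged mimic should in principle also retain the transcripts it is paired with when it is captured. Oligodendrocyte precursors divide and later differentiate into the myelin-forming oligodendrocytes of the brain.

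miR-27a has a close relative, miR-27b. Both mature sequences are shown 5′ to 3′ because the sites of all 10 genes were searched with their shared seed, in capitals (bases 2 to 8, RefSeq, GRCm38.p6).
mmu-miR-27a-3p: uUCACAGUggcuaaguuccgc
mmu-miR-27b-3p: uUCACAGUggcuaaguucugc
miR-27a lies at chr8:84208727-84208747 on the plus strand and miR-27b at chr13:63300760-63300780 on the plus strand. The mature forms have 21 bases each and differ at 1 position, C19U, counted from the 5′ end with the miR-27a base first.

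Sites of 3 types were sought on the transcript strand of the longest 3′ UTR of each gene (GENCODE M21, GRCm38): the 8mer ACTGTGAA, and, where no 8mer stood, the 7mer-m8 ACTGTGA and the 7mer-A1 CTGTGAA. Sites of the 8 genes whose levels carry the results are printed 5′ to 3′ as transcript sequence, with the seed match in capitals.
Abca1 8mer, chr4:53031473-53031502, minus strand: atagtggaaaacttactaACTGTGAAtatg
Cyp1b1 7mer-A1, chr17:79707300-79707328, minus strand: ccagaacttagccttgacCTGTGAAatat
Ccng1 8mer, chr11:40749540-40749569, minus strand: acataaatgtgaaataaaACTGTGAAcctt
Adora2b middle 8mer, chr11:62266013-62266042, plus strand: atgactgaaacttaccttACTGTGAAacac
Adora2b last 8mer, chr11:62266023-62266052, plus strand: cttaccttactgtgaaacACTGTGAActct
Plk2 7mer-m8, chr13:110400266-110400294, plus strand: ctcatgggactcttttccACTGTGAgatc
Plk2 first 8mer, chr13:110400544-110400573, plus strand: tcagttggaagacttggaACTGTGAAtaca
Plk2 last 8mer, chr13:110400634-110400663, plus strand: gcagcttttggctgcttaACTGTGAActat
Spry2 8mer, chr14:105892339-105892368, minus strand: tatacgataatatttgcaACTGTGAAaaaa
Fbxw7 first 8mer, chr3:84978024-84978053, plus strand: gaaaagcttaaaacaattACTGTGAAttgt
Fbxw7 last 8mer, chr3:84978937-84978966, plus strand: agccgtaactcaagctgaACTGTGAAagtg
Zbtb10 7mer-A1, chr3:9281135-9281163, plus strand: tggatggtagttttgttgCTGTGAAaaac

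All 10 genes held at least 1 site, and 7 of them held an 8mer. Across the 17012 genes of the table with an annotated 3′ UTR, 27.62% held a site of any type and 6.096% held an 8mer. Whether such sites were among the grounds for reporting the 10 as targets is not known here, so this difference is description only. Site content depended on length: of 4 equal groups of genes by 3′ UTR length, 55.76% held a site in the longest group and 5.758% in the shortest. Adora2b carried 3 8mers in a 3′ UTR of only 728 bases, the last of them starting 10 bases after the one before it. Plk2 carried 3 sites in 620 bases, and its pair of 8mers started 90 bases apart. Fbxw7 had 2 8mers in 1657 bases. Cyp1b1 and Zbtb10 had a single 7mer-A1, in 3′ UTRs of 3140 and 4300 bases. Foxo1 had a 7mer-m8 and a 7mer-A1 in 6240 bases, and Runx1 had an 8mer and a 7mer-A1 in 4189 bases, their starts 27 bases apart. Foxo1 and Runx1 each overlap an annotated gene on the opposite strand (Gm20402 and Gm26626). The sources used here do not give whether counting used strand, so reads of these pairs may be mixed.

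Libraries held between 15548418 and 24972188 reads assigned to genes, recovered from the deposited log2 CPM (reads scaled to a common library size). Pulldown and whole-cell libraries separated along the first principal component (65.3% of variance) and the mimics along the second (14.4%). On the third (5.4%), pulldown miR-27a replicate 2 stood apart at 20.76, with the other libraries between -11.72 and 7.32. Sex-linked genes also differed between the RNA types. Xist, transcribed from the inactive X chromosome, was at 94.98 to 118.6 CPM in whole-cell RNA and 315.4 to 406.6 CPM in pulldown RNA, while Y-linked Ddx3y was at 121.4 to 133.5 CPM in whole-cell RNA and 24.72 to 41.63 CPM in pulldown RNA. Y-linked Eif2s3y, Kdm5d and Uty were likewise lower in every pulldown library. In any comparison of pulldown with whole-cell RNA, capture and a different mix of male and female cells therefore cannot be told apart. The mimic comparisons within 1 RNA type do not cross that line.

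The precursor label was checked against marker genes. All 12 precursor markers were detected. Their summed level was 2929 to 3016 CPM in whole-cell control RNA and 3073.5 to 3083 CPM in whole-cell miR-27a RNA. In the pulldown groups it was 4649 to 4691 CPM with the control mimic and 5427 to 5577 CPM with miR-27a. Pdgfra, the receptor that defines these cells, was at 490.3 to 559.8 CPM in whole-cell RNA and 1357 to 1610 CPM in pulldown RNA. Astrocyte markers summed to more than the precursor markers in both whole-cell groups. The 14 astrocyte genes were at 10228 to 10291 CPM in whole-cell control RNA and 9133 to 9184 CPM in whole-cell miR-27a RNA. In the pulldown groups they summed to 6809 to 6994 CPM with the control mimic and 5149 to 5927 CPM with miR-27a. Gfap alone was at 1283 to 1359 CPM in whole-cell control RNA. Among the 14, 7 fell and 2 rose with miR-27a in whole-cell RNA, and 7 fell in pulldown RNA. Of the 12 precursor markers tested, 7 rose and 1 fell in whole-cell RNA, and 5 rose in pulldown RNA. The 1 that fell was Pdgfra (log2 change -0.14). Over all genes tested, 13.0% rose and 11.9% fell in whole-cell RNA, and 6.05% rose and 7.06% fell in pulldown RNA. The 12 microglial markers summed to 20.49 to 33.56 CPM over all libraries, with Aif1 between 0 and 0.868 CPM, and C1qa was the 1 that fell in whole-cell RNA (-0.39). The 15 endothelial, mural and fibroblast markers summed to 166 to 423.7 CPM, with endothelial Pecam1 between 0.382 and 1.20 CPM and the fibroblast collagen Col3a1 between 67.8 and 288.6 CPM. Of the 8 tested in whole-cell RNA, 3 fell and 2 rose. The contractile genes of mural cells fell in both RNA types, Acta2 with log2 changes of -1.51 and -1.65 and Tagln with -1.32 and -1.27. Col3a1 (0.31) and the endothelial receptor Kdr (0.54) rose in whole-cell RNA. The 12 neuronal markers summed to 356.9 to 554.5 CPM. The part of these shifts in the results below was not tested, and in bulk RNA fewer cells of a type and less RNA per cell cannot be told apart.

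The levels of the 10 genes covered a wide range. Per kilobase of annotated exon in whole-cell control RNA, Ccng1 was the highest, at 184.7 ± 4.31 CPM per kb (SD, n = 3). Abca1 followed at 43.6, Plk2 at 16.4, Spry2 at 10.9, Cyp1b1 at 8.51, Fbxw7 at 5.63, Zbtb10 at 3.96 and Adora2b at 2.36 CPM per kb. Foxo1 was at 0.362 ± 0.129 CPM per kb and Runx1 at 0.0456 ± 0.0093 CPM per kb. No neighbours in this order had overlapping libraries. Foxo1 and Runx1 therefore rest on few reads, 36 to 68 and 7 to 10 in each of these 3 libraries.

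**Figure D1:**
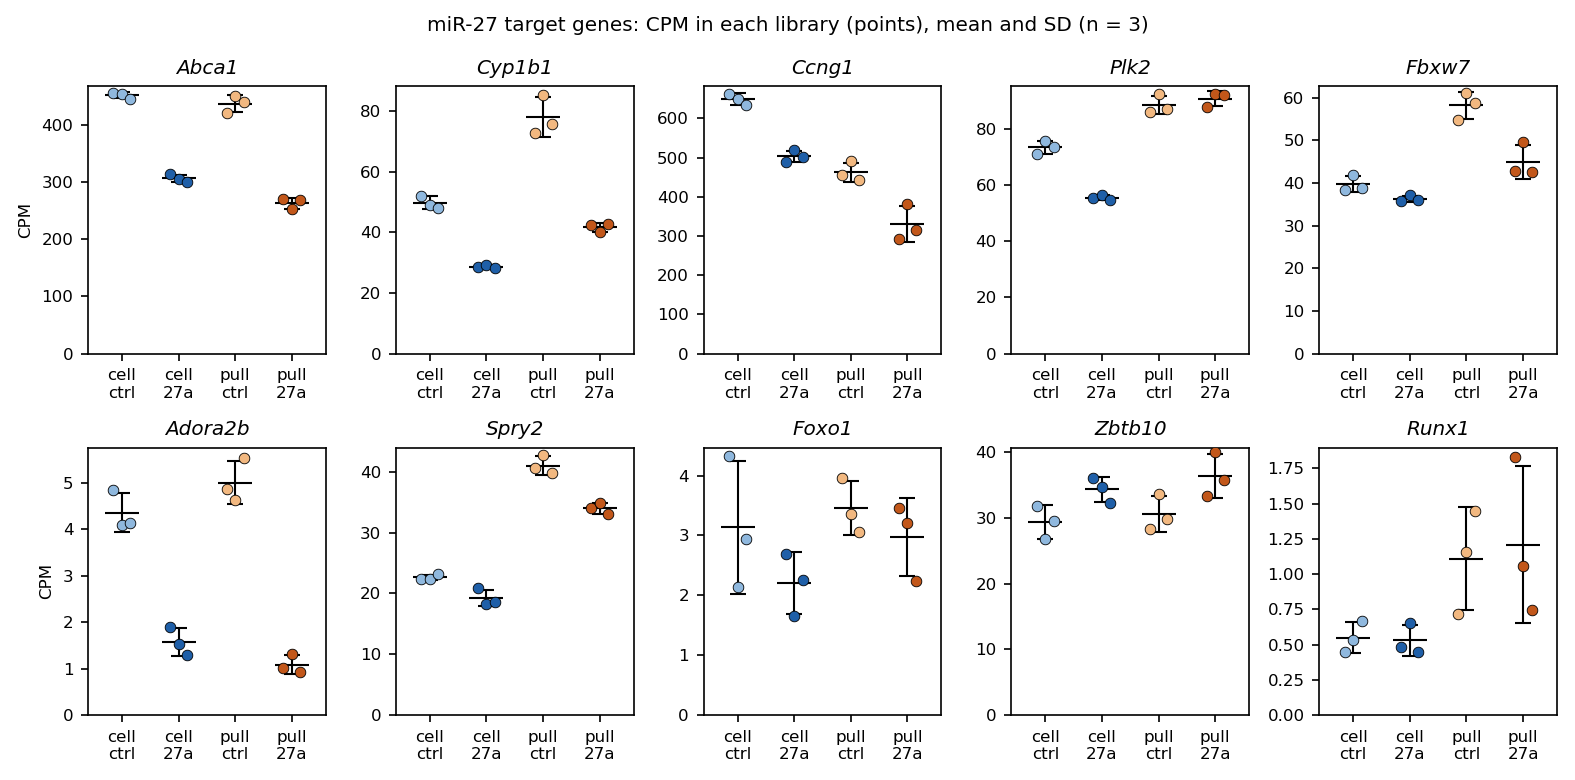
CPM of each of the 10 genes in the 12 libraries on linear axes from 0, 1 panel per gene, with whole-cell (cell) and pulldown (pull) RNA under the control (ctrl) and miR-27a (27a) mimics as columns; points are libraries, long lines are group means and bars are SD (n = 3). Abca1, Cyp1b1, Ccng1 and Adora2b sit lower with miR-27a in both RNA types, while Plk2 is lower in whole-cell RNA and level in pulldown RNA.

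The first comparison asked whether each gene was lower in whole cells after miR-27a. Of the 9 genes that could be tested, 6 fell, 1 rose (Zbtb10) and 2 did not pass the test (Foxo1 and Fbxw7). Abca1, Cyp1b1, Ccng1, Adora2b, Plk2 and Spry2 fell, by between 0.23 and 1.06 on the log2 scale. Runx1 was too low to be tested. Over all 13393 genes tested, 11.9% fell and 13.0% rose. The median log2 change of the 9 was -0.37, against 0.01 over all genes tested. Log2 changes are of CPM + 1, a scale on which low genes change by less than their true fold, and are given with standard errors and limma p-values adjusted by the Benjamini-Hochberg method over all genes tested, with a threshold of 0.05.

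Abca1 encodes the transporter that loads cellular cholesterol onto apolipoproteins. It was at 456, 454 and 445 CPM in the whole-cell control libraries and 313, 305 and 301 CPM with miR-27a. The groups were far apart, and the mean fell by 32.2% (log2 change -0.56 ± 0.03, adjusted p = 1.19e-11). Cyp1b1, a cytochrome P450 that oxidises steroids and xenobiotics, was at 52.1, 48.8 and 48.1 CPM and then 28.6, 29.1 and 28.3 CPM. Its mean fell by 42.3% (-0.77 ± 0.06, adjusted p = 7.85e-10), with only a 7mer-A1 in its 3′ UTR.

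Adora2b, a receptor for extracellular adenosine that raises cyclic AMP, changed the most of the 10 on the log2 scale and is a low-level gene. It was at 4.84, 4.08 and 4.14 CPM in control and 1.89, 1.54 and 1.29 CPM with miR-27a, from 62 to 76 and 23 to 35 reads a library. The mean fell by 63.9% (-1.06 ± 0.14, adjusted p = 3.58e-06), and 0.105% of all genes tested had a lower log2 change. Spry2, an inhibitor of receptor tyrosine kinase signalling to ERK, showed a small fall. It was at 22.4, 22.4 and 23.2 CPM in control and 20.8, 18.3 and 18.6 CPM with miR-27a. The groups did not overlap (-0.23 ± 0.07, adjusted p = 0.0251). The Spry2 call depended on single libraries: the adjusted p was 0.0847 without whole-cell control replicate 3, 0.0946 without whole-cell miR-27a replicate 2 and 0.0976 without its replicate 3. It was 0.0594 when all 12 libraries shared 1 fit.

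The next 3 genes act on the cell cycle or protein turnover. Ccng1 encodes cyclin G1, a p53-induced regulator of growth arrest. It was at 663, 650 and 633 CPM in control and 489, 519 and 501 CPM with miR-27a, a clear separation (-0.37 ± 0.03, adjusted p = 1.77e-08). Plk2 encodes a polo-like kinase that acts in stress responses and at synapses. Its libraries were at 71.1, 75.7 and 73.7 CPM in control and 55.4, 56.5 and 54.5 CPM with miR-27a, and the mean fell by 24.5% (-0.40 ± 0.05, adjusted p = 1.04e-06). Fbxw7 encodes the substrate-recognition subunit of an SCF ubiquitin ligase that degrades cyclin E, Myc and Notch. It was at 38.4, 41.9 and 38.8 CPM in control and 35.7, 37.1 and 36.0 CPM with miR-27a; the groups did not overlap, but the difference did not pass the test (-0.13 ± 0.06, adjusted p = 0.116), although its 3′ UTR holds 2 8mers.

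The transcription factors gave no fall that passed. Zbtb10, a zinc-finger repressor of Sp-factor genes, rose: it was at 31.9, 26.7 and 29.5 CPM in control and 36.1, 34.7 and 32.3 CPM with miR-27a, with all miR-27a libraries above all controls (0.22 ± 0.07, adjusted p = 0.0204). This call was fragile. The adjusted p was 0.059 with no filter on low genes, 0.137 in the 12-library fit, 0.102 without whole-cell control replicate 2, 0.0509 without its replicate 3, 0.114 without whole-cell miR-27a replicate 1 and 0.0626 without its replicate 2. Foxo1, a forkhead factor restrained by insulin and Akt signalling, was at 4.33, 2.13 and 2.94 CPM in control and 2.69, 1.66 and 2.25 CPM with miR-27a. The groups overlapped (-0.35 ± 0.17, adjusted p = 0.145), and the adjusted p was 0.0197 without whole-cell control replicate 2. Runx1, a factor best known from blood formation, lay between 0.446 and 0.667 CPM in whole-cell RNA, 7 to 11 reads a library, and no difference was detectable at this depth.

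**Figure D2:**
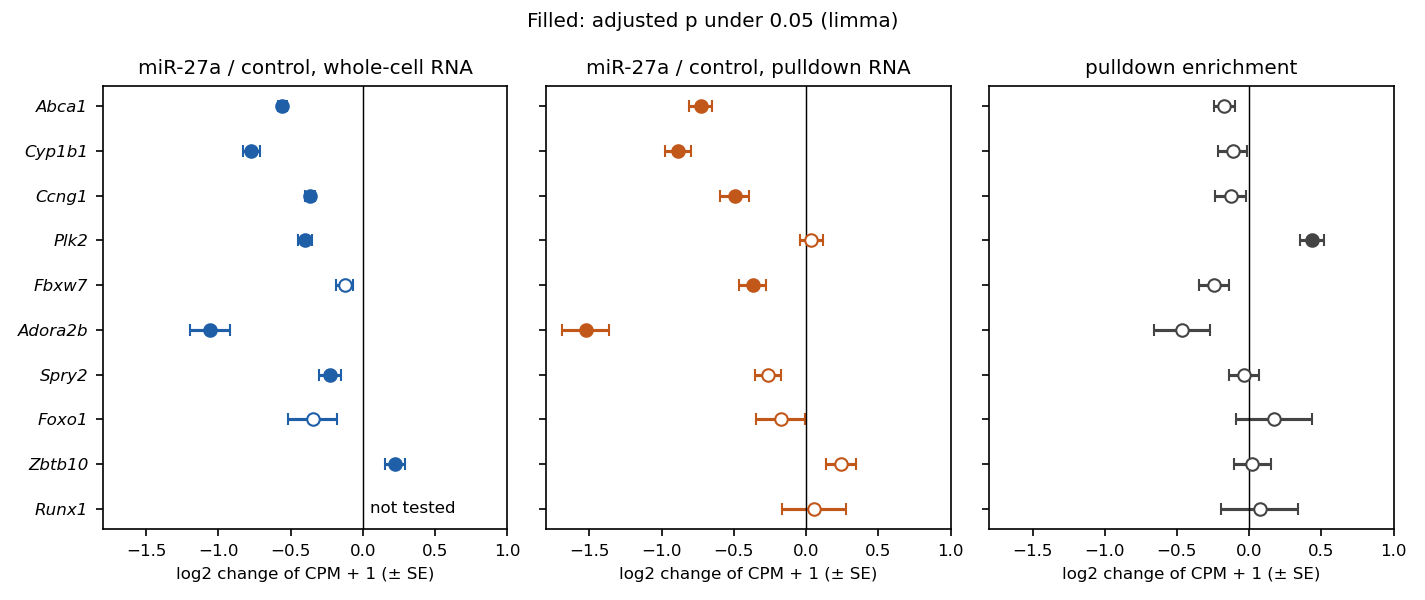
Log2 change of CPM + 1 with miR-27a against the control mimic for each gene in whole-cell and in pulldown RNA, and the pulldown enrichment, with bars for the standard error and filled points where the adjusted p is under 0.05. Abca1, Cyp1b1, Ccng1 and Adora2b lie below 0 in both RNA types, and only Plk2 has an enrichment above 0 that passes the test.

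The same contrast was then made in pulldown RNA, to ask whether transcripts of these genes were more abundant among captured RNA with miR-27a than with the control mimic. Of the 10, 5 fell by limma (Abca1, Cyp1b1, Ccng1, Adora2b and Fbxw7) and 0 rose. Over the 13586 genes tested, 6.05% rose and 7.06% fell. For a rise, limma on log2(CPM + 1) called 0 members, 1 reached an unadjusted p under 0.05 (Zbtb10), and voom on the recovered reads called 0. The median log2 change of the 10 was -0.32, against -0.00 over all genes tested. Replicate numbers may pair the pulldown libraries, on weak correlations, and the main fit did not use them. With the replicate as a block, the calls over all genes went from 1781 to 2743. Zbtb10 then rose (limma, adjusted p = 0.0472) and Spry2 fell (adjusted p = 0.0267).

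For Abca1, Cyp1b1, Adora2b and Ccng1 the fall in pulldown RNA was larger in value than that in whole-cell RNA, by a difference that did not pass its own test, given with the enrichment. Abca1 was at 421, 451 and 441 CPM in pulldown control and 270, 252 and 268 CPM in pulldown miR-27a, so the mean fell by 39.8% (-0.73 ± 0.08, adjusted p = 2.25e-05). Cyp1b1 was at 72.8, 85.3 and 75.8 CPM and then 42.4, 40.0 and 42.5 CPM (-0.89 ± 0.09, adjusted p = 1.47e-05). Adora2b was at 4.85, 4.63 and 5.53 CPM and then 1.01, 1.32 and 0.931 CPM, from 81 to 130 and 20 to 30 reads a library, and the mean fell by 78.3% (-1.53 ± 0.16, adjusted p = 2.25e-05). Every control library was above every miR-27a library for these 3 genes. Ccng1 was at 455, 490 and 444 CPM and then 293, 382 and 316 CPM, with miR-27a replicate 2, the library that stood apart on the third component, the highest of its group (-0.50 ± 0.10, adjusted p = 0.00302).

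Fbxw7 was at 54.8, 61.2 and 58.7 CPM in pulldown control and 42.7, 49.6 and 42.5 CPM in pulldown miR-27a (-0.37 ± 0.09, adjusted p = 0.0157). The call was lost without pulldown control replicate 2 (adjusted p = 0.0804), without its replicate 3 (0.0766) and without pulldown miR-27a replicate 3 (0.0949). Spry2 was at 40.6, 42.7 and 39.7 CPM and then 34.0, 34.9 and 33.0 CPM; the groups did not overlap, and the difference missed the threshold (-0.27 ± 0.09, adjusted p = 0.0651). Plk2 showed no such gap: it was at 86.0, 92.3 and 87.2 CPM in pulldown control and 87.8, 92.3 and 92.2 CPM in pulldown miR-27a (0.04 ± 0.08, adjusted p = 0.827). Zbtb10 was at 28.3, 33.7 and 29.8 CPM and then 33.3, 40.0 and 35.7 CPM, with overlap (0.24 ± 0.10, adjusted p = 0.149). Foxo1 ran from 2.23 to 3.96 CPM over the 6 pulldown libraries and Runx1 from 0.719 to 1.83 CPM, and neither difference passed (adjusted p = 0.563 and 0.91).

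**Figure D3:**
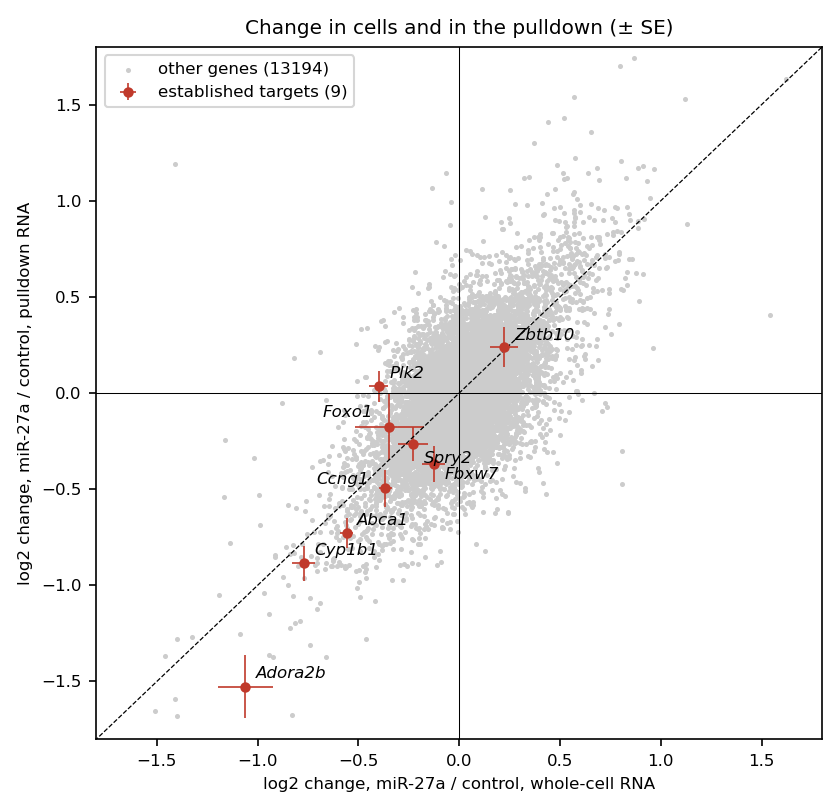
Log2 change with miR-27a in whole-cell RNA (horizontal axis) against pulldown RNA (vertical axis), with all genes tested in both as grey points, the 9 established targets tested in both named with standard error bars, and the diagonal drawn; axes end at 1.8 in either direction, and genes beyond are not drawn. Abca1, Cyp1b1, Ccng1, Adora2b and Fbxw7 lie below the diagonal, and Plk2 lies furthest above it of the named genes.

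Pulldown RNA was next compared with whole-cell RNA under each mimic, with the reservation on sex-linked genes given above. It holds equally for the cell type markers, whose sums also differed between the RNA types. With the control mimic, 4 of the 10 were higher in pulldown RNA (Spry2, Cyp1b1, Fbxw7 and Plk2) and 1 was lower (Ccng1). Over the 13875 genes tested, 31.7% were higher and 30.3% lower. With miR-27a, the same 4 were higher and 2 were lower (Ccng1 and Abca1), where 29.3% of all genes were higher and 30.9% lower. The counts of higher genes are not far from these background shares. Runx1 is left out of them: it was at 0.446 to 0.667 CPM in whole-cell RNA and 0.719 to 1.83 CPM in pulldown RNA, and reached the filter of 1 CPM in 3 libraries through pulldown libraries alone, so the direction of its difference was set by the filter and is not read as a result. The pulldown excess of Spry2 was 0.83 ± 0.07 with the control mimic and 0.79 ± 0.07 with miR-27a. Cyp1b1 was at 0.64 ± 0.07 and 0.52 ± 0.07, and Ccng1 at -0.49 ± 0.08 and -0.61 ± 0.08. The deficit of Abca1 with miR-27a (-0.22 ± 0.05, adjusted p = 0.00171) was lost when values were scaled by library totals (0.0761).

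To ask about capture by miR-27a itself, the pulldown enrichment was taken. This is the pulldown-to-whole-cell log2 difference under miR-27a minus the same difference under the control mimic, fitted over all 12 libraries. It crosses the RNA types, which differed in sex-linked genes and in the cell type markers given above. Capture and a mimic response that differs by sex or by cell type therefore cannot be told apart. Of the 10 genes, 1 was enriched (Plk2) and 0 were depleted. Over all 13875 genes tested, 0.339% were enriched and 0.735% depleted. For depletion of members, limma called 0, 3 reached an unadjusted p under 0.05 (Abca1, Adora2b and Fbxw7) and voom called 0. The median enrichment of the 10 was -0.08, against -0.01 over all genes tested.

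Plk2 was 1.20 times as high in pulldown as in whole-cell RNA with the control mimic (0.26 ± 0.06, adjusted p = 0.000757) and 1.64 times as high with miR-27a (0.70 ± 0.06, adjusted p = 1.44e-08). The ratio of these ratios was 1.36, an enrichment of 0.43 ± 0.08 (adjusted p = 0.0134), and 97.8% of all genes tested had a lower value. Between the mimics, Plk2 fell in whole-cell RNA, while its pulldown libraries overlapped. This call did not hold when whole-cell control replicate 3 was left out (adjusted p = 0.0546), nor without whole-cell miR-27a replicate 1 (0.055), its replicate 3 (0.0639) or pulldown control replicate 3 (0.059). The lowest enrichment was that of Adora2b, at -0.47 ± 0.20 (adjusted p = 0.306). Fbxw7 followed at -0.24 ± 0.11 (adjusted p = 0.328) and Abca1 at -0.17 ± 0.08 (adjusted p = 0.339). Ccng1 (-0.13 ± 0.11), Cyp1b1 (-0.11 ± 0.10), Spry2 (-0.04 ± 0.11) and Zbtb10 (0.02 ± 0.13) lay near 0.

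The changes of the 10 genes were set beside those of all genes with the same site types. In whole-cell RNA, 32.34% of the 841 tested genes with an 8mer fell and 7.967% rose. Of the 1462 with a 7mer-m8 as best site 18.19% fell, of the 1480 with a 7mer-A1 14.19% fell, and of the 8667 with no site 9.069% fell. These classes also differed in 3′ UTR length, with medians of 2598, 2329, 2246 and 924 bases from the 8mer to no site. Length was not held equal between them. Among the 48 genes with 2 or more 8mers, which include Adora2b, Plk2 and Fbxw7, 21 fell. In pulldown RNA 17.74% of the 857 genes with an 8mer fell, against 5.751% of those with no site. The enrichment showed no such order: of the 872 genes with an 8mer, 2 were enriched and 5 depleted, and of the 8923 with no site, 36 were enriched and 70 depleted. Plk2 was the 1 enriched gene among the 54 with 2 or more 8mers.

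**Figure D4:**
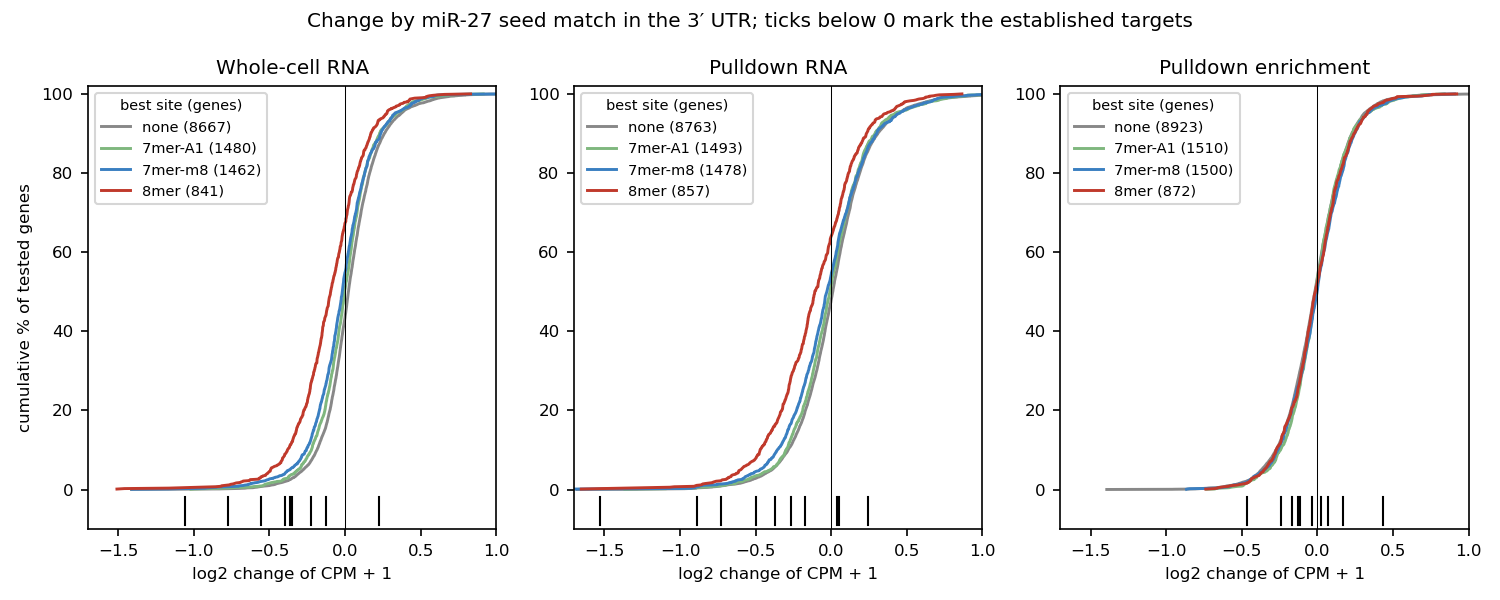
Cumulative percentage of genes against log2 change of CPM + 1 in whole-cell RNA, in pulldown RNA and for the pulldown enrichment, with 1 curve per best site type in the 3′ UTR and black ticks for the established targets. Genes with an 8mer are shifted to lower values in whole-cell RNA (median -0.09) and pulldown RNA (median -0.11), and for the enrichment the curves lie on one another.

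Other genes reported as miR-27 targets were counted in the same way. Of 34 listed, 26 were tested in whole-cell RNA, where 9 fell and 3 rose, and in pulldown RNA 7 fell and 1 rose. Median log2 changes of those tested were -0.05 in whole-cell RNA and -0.07 in pulldown RNA. Over all genes tested the medians were 0.01 and -0.00. The shares over all genes tested were 11.9% falling and 13.0% rising in whole-cell RNA, and 7.06% and 6.05% in pulldown RNA. Nfe2l2, the regulator of the antioxidant response, fell from 58.0 ± 0.38 to 42.7 ± 1.25 CPM (SD, n = 3) in whole-cell RNA (-0.43 ± 0.05, adjusted p = 8.45e-07) and changed by -0.59 in pulldown RNA. Gpam, the first enzyme of glycerolipid synthesis, changed by -0.34 and -0.54, Snap25, a membrane-fusion protein, by -0.40 and -0.87, and Met, the receptor of hepatocyte growth factor, by -0.85 and -0.999. All 4 passed in both RNA types.

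Paralogs of the 10 genes were also listed, and for Runx1 its partner Cbfb was included with them. Of 28 tested in whole-cell RNA, 5 passed the test, and these 5 rose. Over all genes tested there, 13.0% rose and 11.9% fell, so the count of risers is not far from the background share. The polo-like kinases Plk1 (0.74, adjusted p = 2.34e-05) and Plk4 (0.39, adjusted p = 2.58e-05), which drive mitosis and centriole duplication, rose while Plk2 fell. The cholesterol exporter Abcg1 rose (0.28, adjusted p = 0.011) while Abca1 fell. Abca3 (0.09), Ccng2 (-0.03), Adora1 (0.10), Foxo4 (0.16), Fbxw11 (-0.03) and Zbtb33 (-0.05) did not pass. Zbtb33 holds an 8mer, Fbxw11 a 7mer-m8 and Ccng2 a 7mer-A1, and Abca3, Adora1, Plk4 and Foxo4 hold no site. Cyp1a1, at a mean of 0.566 CPM in whole-cell control RNA, was too low to be tested there.

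Gene lists for the pathways around the 10 genes were counted in whole-cell RNA, to be read against the 13.0% of all genes that rose and the 11.9% that fell. Of 12 genes of the liver X receptors, the sterol sensors that induce Abca1, 3 rose, among them Srebf1 (0.32, adjusted p = 8.85e-06), and 1 fell, Abca1 itself. Of 6 tested genes of the aryl hydrocarbon receptor, which induces Cyp1b1, 3 passed, and these fell: Cyp1b1, the receptor Ahr (-0.49, adjusted p = 0.000876) and its partner Arnt (-0.24, adjusted p = 0.0252). Ahr holds an 8mer and Arnt a 7mer-m8. The p53 list held the p53 gene itself and its target genes. Of its 19 tested genes, 6 rose and 4 fell. Ccng1 and Plk2 fell while Eda2r (0.43, adjusted p = 3.04e-07) and Trp53inp1 (0.43, adjusted p = 1.19e-09) rose.

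Of 12 ERK feedback genes tested, 3 fell and 1 rose. The fallers were Spry2, Spred1, another inhibitor of the pathway (-0.24, adjusted p = 2.48e-05), and Etv4, a factor induced by it (-0.31, adjusted p = 0.0111). Of 19 tested subunits and substrates of the Fbxw7 ligase, 6 rose and 2 fell. The transcript of Ccne2, which encodes a cyclin E, was among those that rose, from 21.9 ± 2.36 to 43.5 ± 1.23 CPM (SD, n = 3; 0.96, adjusted p = 6.05e-10). Of 18 genes tested from the FoxO1 list, which holds FoxO factors and target genes, 3 rose and 2 fell. Zbtb10 was the 1 gene that passed among the 4 of its Sp-factor list, and Sp1 (-0.02), Sp3 (-0.00) and Sp4 (0.10) did not. The Runx1 partner Cbfb was at 409 ± 7.43 CPM in control and 408 ± 4.96 CPM with miR-27a.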

How the data were processed

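RNA from mouse oligodendrocyte precursor cells was sequenced in 12 libraries, 3 for each of 4 groups (whole-cell or pulldown RNA, control or miR-27a mimic). Per the labels' protocols, libraries were made with a stranded total RNA kit after ribosomal RNA removal and read as pairs. The submitters' processing notes name HISAT2, SAMtools, featureCounts (Subread) and edgeR with GRCm38, without versions. The authors deposited log2 CPM per gene for 20540 genes. CPM and reads were recovered from these values: the lowest value of each library (-6.27) stood for 0 reads, and all values came out as whole reads within 0.01. The authors' scaling was kept. Genes reaching 1 CPM in 3 or more libraries of a fit were tested on log2(CPM + 1) with limma 3.58.1 (trend, R 4.3.3). Simulated data were used to check the whole-cell mimic comparison only, not the pulldown or enrichment comparisons. The mimic comparisons used the 6 libraries of 1 RNA type, and the others used all 12. Benjamini-Hochberg adjustment ran over all genes tested, with a threshold of 0.05.

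Sites were sought in the longest GENCODE 3′ UTR; symbols were matched directly or through RefSeq synonyms (19699 of 20540). Not every site sequence is reported here. Same-numbered pulldown libraries deviated together (correlations of 0.135, 0.275 and 0.107), and differently numbered ones ran from -0.198 to 0.062. The replicate number was therefore tried as pairing them. That pairing is uncertain, as whole-cell control replicate 1 and pulldown miR-27a replicate 2 reached 0.222. Same-numbered whole-cell libraries did not deviate together (0.001, -0.028 and -0.034). Alternatives were other scalings, no filter, another pseudocount, voom, 1 fit for all libraries, the replicate block and leaving out each library. The 10 genes, the other lists and the tests were chosen with earlier results of these data known. The text names all 10 genes, up to 4 genes of each other list with the smallest p, and for each family the paralog with the highest level. For Runx1 the gene taken was its partner Cbfb. Plk1 and Abcg1 were among the paralogs with the smallest p. Among the markers, Gfap, Pdgfra, Aif1 and Pecam1 were named after their values were seen.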

Additional observations from a re-analysis of the deposited data

Results flagged for a closer look

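Plk2 was the 1 gene of the 10 whose response to miR-27a differed between the RNA types by the test of the difference itself. It changed by -0.40 ± 0.05 in whole-cell RNA and by 0.04 ± 0.08 in pulldown RNA (log2 of CPM + 1), a difference of 0.435 (limma over 12 libraries, adjusted p = 0.0134). All 3 whole-cell miR-27a libraries lay below all 3 whole-cell controls, and the pulldown groups overlapped. The difference crosses the RNA types, so the reservation on sex-linked genes and cell type markers given above applies to it. Over 19 alternatives, leaving out each library among them, the adjusted p ran from 0.00274 to 0.0639.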

How the results depend on the processing

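Of 836 values of single genes under an alternative, 800 stayed on the same side of the threshold, 21 no longer passed, 15 newly passed and 0 passing values changed sign; of the 800, 14 that passed in neither case did change sign. With no filter on low genes, 0 of the 10 rose in whole-cell RNA and 73 genes were called for enrichment, against 149. With 1 fit for 12 libraries, whole-cell calls went from 3335 to 1415, 0 of the 10 rose there, and pulldown calls went from 1781 to 3051. The replicate block gave 2743 pulldown calls and 1 riser among the 10; it changed the pulldown calls of Spry2 and Zbtb10. With library totals, 1 of the 10 was lower in pulldown than in whole-cell RNA under miR-27a, against 2, and the share of higher calls there went from 48.67% to 60.2%; with median-of-ratios scaling the share of enriched among enrichment calls went from 31.54% to 42.4%. Leaving out 1 library gave 0 to 1 risers in whole-cell RNA, 969 to 2691 pulldown calls, 43 to 473 enrichment calls and 0 to 1 enriched gene of the 10. Pulldown calls moved by over 1.5 times without pulldown control replicate 1 (1002), 2 (1180) or 3 (969) or pulldown miR-27a replicate 2 (2691) or 3 (1029). Enrichment calls did so without whole-cell control replicate 1 (54) or 3 (53), whole-cell miR-27a replicate 1 (57), 2 (66) or 3 (43), pulldown control replicate 1 (90) or 3 (49), or pulldown miR-27a replicate 1 (359) or 2 (473). The cause of these changes was not tested. Depth limits Runx1, Foxo1 and Adora2b most.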

Other observations

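Spry1, the paralog of Spry2 with the highest level, also holds an 8mer and moved in opposite directions in the 2 RNA types. It was at 25.7 ± 1.56 CPM in whole-cell control RNA and 30.0 ± 0.67 CPM with miR-27a (SD, n = 3), and rose (log2 change 0.22 ± 0.07, limma, adjusted p = 0.017). In pulldown RNA it fell from 78.6 ± 1.75 to 64.6 ± 0.20 CPM (-0.28 ± 0.08, adjusted p = 0.0313). Its pulldown enrichment was -0.50 ± 0.09 (adjusted p = 0.0123), the opposite sign to that of Plk2. This enrichment crosses the RNA types, so the reservation on sex-linked genes and cell type markers given above applies to it. How far the Spry1 calls depend on single libraries was not examined. Spry2 itself was lower with miR-27a in both RNA types, at -0.23 and -0.27 (adjusted p = 0.0251 and 0.0651), with an enrichment of -0.04 (adjusted p = 0.928).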
